A study of Danio rerio with 9 samples.

Results

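The mitochondrial solute carriers of zebrafish skeletal muscle were examined as a family, the SLC25 carriers together with the uncoupling proteins, which belong to the same family by sequence. Members were taken by name, as every gene whose name in the deposited tables begins with slc25 in either case, plus *ucp1*, *ucp2* and *ucp3*. This gave 62 of the 32520 genes listed, and all 62 carry the mitochondrial carrier domain in the deposited annotation. Of these, 46 had enough counts to be tested and 16 did not. The choice used names alone and no measured value, though earlier results of these data were known when it was made.

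The study asked how loss of *bves* and regular exercise change the muscle transcriptome. *bves* encodes a membrane protein of striated muscle with a Popeye domain that binds cyclic AMP. RNA was sequenced from 9 libraries, 3 each of unexercised WT fish, unexercised *bves* KO fish and exercised *bves* KO fish (*bves* KO-EX). Fish were males selected at 12 months of age, and each library pooled the muscle of 2 fish. The knockout was made by CRISPR/Cas9 in the whole animal, so it is not restricted to muscle, and which of the frameshift lines was sequenced is not stated. The *bves* KO-EX fish swam for 8 weeks in sessions of 1.5 h with regular rest days, against water that first moved at 10 cm/s and then at 16 cm/s. No exercised WT library was analysed here, so *bves* KO-EX against WT carries genotype and training at once, and these cannot be told apart. The p-values measure the spread between libraries of pooled fish.

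Carriers of this family sit in the inner mitochondrial membrane, with a few exceptions, and each moves a small set of solutes between the cytosol and the matrix. The ADP/ATP carriers export ATP made by the respiratory chain and import ADP, and the phosphate carrier brings in the phosphate that ATP synthase needs. Others carry the substrates of the tricarboxylic acid cycle, amino acids, fatty acids bound to carnitine, iron, nucleotides, cofactors and glutathione. The uncoupling proteins are named for *ucp1*, which in mammalian brown fat lets protons return to the matrix without making ATP. Skeletal muscle depends on the ADP/ATP and phosphate carriers because of the ATP that contraction uses.

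Each library held between 17422188 and 18860779 estimated counts. The targeted gene *bves* had 39.5, 57.2 and 43.8 CPM (counts scaled to library size and between libraries) in WT and 7.94, 17.5 and 6.70 CPM in *bves* KO. Values were 47.4, 11.4 and 49.6 CPM in the libraries labelled *bves* KO-EX, so replicates 1 and 3 lay in the WT range. The comparison of *bves* KO-EX with *bves* KO thus carries a difference in *bves* level beside training, and these cannot be told apart. Called members, and some of the other named members, are therefore also given with replicate 2 as the sole exercised library. Of the 46 tested members this moved 25 by over 1.5 times without a change of sign and turned the sign of 13 in *bves* KO-EX against *bves* KO, and it did so for 27 and 5 in *bves* KO-EX against WT. Replicate 2 also had the lowest summed level of nuclear respiratory chain genes of all 9 libraries, 43793 TPM. Exercised replicates 1 and 3 had 63581 and 57647 TPM. Its scaling factor between libraries was the largest (1.17). In that fit these traits cannot be told apart from the *bves* level. WT replicate 2 had the smallest factor (0.763), and the other libraries had 0.93 to 1.17. TPM values do not use this factor, so the place of WT replicate 2 can differ between TPM and CPM. All tissue was labelled skeletal muscle, and fast muscle markers (8 of the 10 found were tested) summed to between 36340 and 55105 TPM (a level per gene length). Markers of slow or red muscle varied more, from 1627 TPM in WT replicate 2 to 5978 TPM in WT replicate 3. Fibroblast markers summed to 61.4 to 77.7 TPM in WT, 121 to 183 TPM in *bves* KO and 139 to 259 TPM in *bves* KO-EX. Adipocyte markers, with 1 of 6 at or under 3 counts in every library, averaged 399 TPM in WT, 423 TPM in *bves* KO and 635 TPM in *bves* KO-EX. Erythroid markers averaged 1016, 1262 and 1790 TPM in the same order of groups. In such bulk samples, fewer cells of a type and less RNA per cell cannot be told apart, and the part of these cell types in the carrier results was not tested.

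Transcripts of 3 genes, *slc25a5*, *slc25a4* and *slc25a3b*, made up nearly all of those of the family. The ADP/ATP carrier *slc25a5* (ENSDARG00000092553) stood at rank 22 of all genes by mean TPM, the ADP/ATP carrier *slc25a4* (ENSDARG00000027355) at rank 37 and the phosphate carrier *slc25a3b* (ENSDARG00000025566) at rank 104. Together they made up between 91.3% and 94.7% of the family's TPM in each of the 9 libraries, in the same order in every library. The steps below them were wide. Only 6 members averaged at least 100 TPM, 16 averaged at least 10 TPM and 40 averaged at least 1 TPM.

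The level of *slc25a5* was 10771, 5418 and 13384 TPM in the 3 WT libraries, 9275, 6965 and 8241 TPM in *bves* KO and 9202, 6683 and 6317 TPM in *bves* KO-EX. In TPM the WT libraries thus held both the lowest and the highest value, and the other groups lay between them. In CPM, the scale of the test, the lowest WT library stood at 9225. Below it lay *bves* KO replicate 2 (8560) and *bves* KO-EX replicates 2 (6597) and 3 (7258). The level of *slc25a4* was 2702, 3233 and 3608 TPM in WT, 2397, 3773 and 2786 in *bves* KO and 2842, 2202 and 3138 TPM in *bves* KO-EX, with full overlap of the groups. For *slc25a3b* it was 1584, 1124 and 1938 TPM in WT, 1286, 1059 and 1333 in *bves* KO, and 1511, 1205 and 1395 TPM in *bves* KO-EX. In CPM every *bves* KO library of *slc25a3b* (1321 to 1491) lay below every WT library (1607 to 2184). None of these carriers passed the test in any comparison. With edgeR, the log2 fold changes of *bves* KO against WT were −0.32 (SE 0.306) for *slc25a5*, −0.24 (SE 0.347) for *slc25a4* and −0.42 (SE 0.258) for *slc25a3b*, with adjusted p-values of 0.624, 0.767 and 0.428. In the same order, *bves* KO-EX stood at −0.16, −0.17 and 0.14 against *bves* KO and at −0.48, −0.40 and −0.28 against WT. With *bves* KO-EX replicate 2 as the sole exercised library these were −0.52, −0.69 and −0.26, and −0.85, −0.93 and −0.68.

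**Figure D1:**
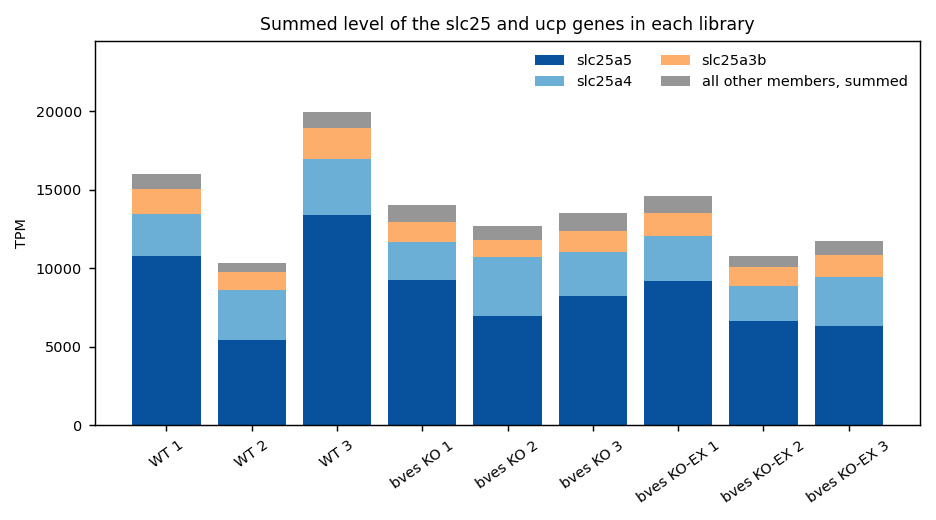
Stacked bars of the TPM of *slc25a5*, *slc25a4*, *slc25a3b* and the sum of all other members in each of the 9 libraries, labelled by group and replicate. The total runs from 10361 TPM in WT replicate 2 to 19985 TPM in WT replicate 3, and the grey top, the sum of all other members, stays between 586 and 1183 TPM.

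Summed over all members, the family reached 15462 ± 4838 TPM in WT, 13435 ± 693 TPM in *bves* KO and 12385 ± 1984 TPM in *bves* KO-EX (mean ± SD, n = 3 each). The *bves* KO mean was 0.869 and the *bves* KO-EX mean 0.801 of the WT mean, and both differences were smaller than the SD among the WT libraries on this scale. WT replicate 2 was lowest and WT replicate 3 highest on this scale, and the markers of slow or red muscle had their lowest and highest values in the same libraries. After TMM scaling, the family's CPM per kilobase was lowest in *bves* KO-EX replicate 2 (8011) and highest in WT replicate 3 (16806), so the place of WT replicate 2 depended on the scale. There the means were 14064 ± 2439 for WT, 11648 ± 218 for *bves* KO and 10584 ± 2817 for *bves* KO-EX (SD, n = 3), and the difference of *bves* KO-EX from WT was larger than the SD among WT, with *bves* KO-EX replicate 1 (13594) inside the WT range. Set against the nuclear genes of the respiratory chain (107 genes), the family's TPM came to between 20.4% and 30.2% of theirs. The 13 mitochondrially encoded genes averaged 226177 TPM in WT, 219371 TPM in *bves* KO and 306268 TPM in *bves* KO-EX. All genes of a library share its TPM total, and the part of these 13 genes in the family's TPM was not tested.

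The balance between both ADP/ATP carriers varied more between libraries than between groups. The ratio of *slc25a5* to *slc25a4* TPM was 3.99, 1.68 and 3.71 in WT, 3.87, 1.85 and 2.96 in *bves* KO and 3.24, 3.03 and 2.01 for *bves* KO-EX. Another ADP/ATP carrier gene, *slc25a6*, had at most 5 counts in any library and could not be tested. In mammals *slc25a4* is the form typical of heart and skeletal muscle, and in these fish *slc25a5* was the more abundant of both in all 9 libraries.

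Because the libraries differed in markers of slow or red muscle, the level of every tested member was set beside the summed CPM of those markers and beside that of the nuclear respiratory chain genes, a comparison chosen after the data had been seen. This made 92 relations over 9 libraries, each on the log2 scale with a pseudocount of 0.5 CPM and an exact two-sided permutation test. The libraries share a scaling factor and a total between both axes, and the groups are pooled. The oxoglutarate/malate carrier *slc25a11*, part of the shuttle that brings reducing equivalents into mitochondria, was the only member that passed by both coefficients. Its level went with that of the respiratory chain genes (Pearson r = 0.96, Spearman rho = 0.97, exact permutation p = 3.31e-05 and 0.000165, Benjamini-Hochberg adjusted p = 0.00304 and 0.0152). Without the 2 libraries farthest from the median, r was 0.94, and for deviations from the group means it was 0.96.

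The glutamate carrier *slc25a18* went with the slow or red muscle markers by Pearson's coefficient (r = 0.91, exact permutation p = 0.000777, adjusted p = 0.0357) but did not pass by Spearman's (rho = 0.80, exact permutation p = 0.0138, adjusted p = 0.254). For *slc25a5* the values beside the slow or red muscle markers were r = 0.80 and rho = 0.85 (exact permutation p = 0.0101 and 0.00607, adjusted p = 0.186 and 0.254). For *slc25a4* beside the same markers they were r = −0.25 and rho = −0.22 (exact permutation p = 0.52 and 0.581, adjusted p = 0.756 and 0.931). Neither of the last 2 carriers passed the adjustment, and the difference between their coefficients was not tested. Beside the nuclear respiratory chain genes, r and rho were 0.61 and 0.45 for *slc25a5*, 0.77 and 0.73 for *slc25a4*, and 0.87 and 0.73 for *slc25a3b*. None of these passed the adjustment either (exact permutation test, adjusted p from 0.0737 to 0.661).

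**Figure D2:**
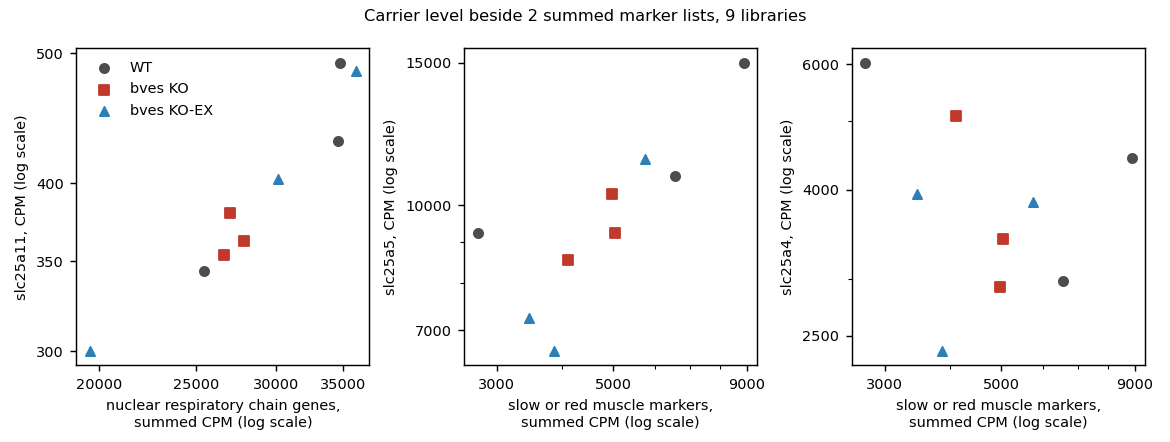
CPM of *slc25a11* against the summed CPM of the nuclear respiratory chain genes (left), and of *slc25a5* (middle) and *slc25a4* (right) against the summed CPM of the slow or red muscle markers, 1 point per library, log axes. The *slc25a11* points rise together from 300 to 492 CPM. Those of *slc25a4* show no such order beside the slow or red muscle markers, which is another axis than that of *slc25a11*.

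Among the other abundant members, *slc25a11* was 249 ± 76.7 TPM in WT, 229 ± 16.6 TPM in *bves* KO and 248 ± 28.6 TPM in *bves* KO-EX (SD, n = 3). The aspartate/glutamate carrier *slc25a12*, which serves the same shuttle and binds calcium through EF-hands, had 90.9, 54.9 and 157 TPM in WT, 86.3, 90.8 and 95.2 in *bves* KO and 135, 69.6 and 118 TPM in *bves* KO-EX. In TPM the WT libraries again spanned the range of the other groups, while in CPM *bves* KO-EX replicate 2 (164) lay below the lowest WT library (220). The carnitine/acylcarnitine carrier *slc25a20*, through which long-chain fatty acids enter the matrix, had 40.3, 27.4 and 65.5 TPM in WT, 42.6, 30.5 and 46.5 in *bves* KO, and 38.9, 25.2 and 24.8 TPM in *bves* KO-EX. In CPM *bves* KO-EX replicates 2 (26.3) and 3 (30.1) and *bves* KO replicate 2 (39.7) lay below the lowest WT library (43). *slc25a20* did not pass the edgeR test in *bves* KO-EX against WT (log2 fold change −0.67, SE 0.297, unadjusted p = 0.0462, adjusted p = 0.19). The value was −1.13 where replicate 2 was the sole exercised library. For *slc25a11*, *slc25a12* and *slc25a20* no comparison passed.

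**Figure D3:**
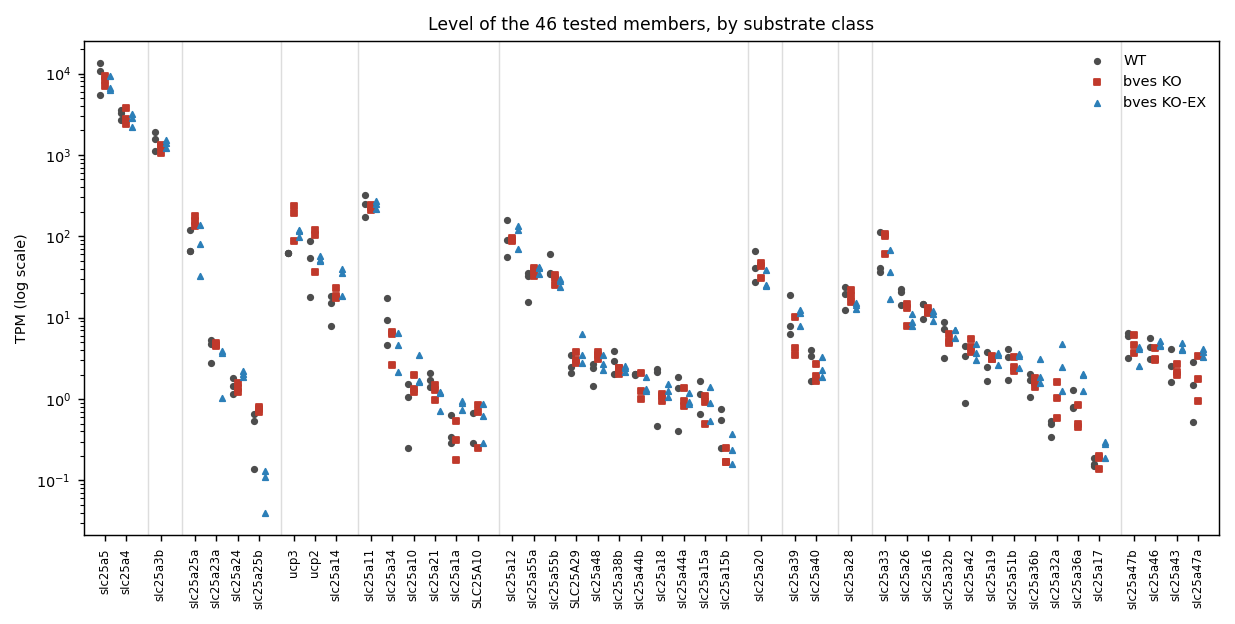
TPM of the 46 tested members in each library (log axis), ordered by substrate class and then by mean level, with 1 point per library and vertical lines between classes. Levels run from the ADP/ATP carriers at the left, to members below 1 TPM, and *SLC25A10* in WT replicate 1, at 0, is not drawn.

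In *bves* KO against WT, no member passed. With edgeR, 0 of 46 members were called up and 0 called down at an adjusted p under 0.05, where 0.754% of all 14849 tested genes were called up and 0.357% down. At an unadjusted p under 0.05 there were 8 members (17.4%, against 16.9% of all tested genes). DESeq2 called 1 member up, *ucp3*, and 1 down, *slc25a26*. The share of all tested genes that DESeq2 called was not computed, so these calls have no background beside them. The median log2 fold change of the members was −0.22 and that of all tested genes −0.03. Of the members, 16 were above 0 and 30 below (65.2% below, against 52.3% of all tested genes). The 3 WT and 3 *bves* KO libraries did not overlap in CPM for 5 members higher in *bves* KO (background 11.2%) and 6 lower (background 10.2%).

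The uncoupling protein *ucp3*, whose gene is expressed mainly in skeletal muscle in mammals, had the smallest p-value among the members with a value above 0. Its level was 62.2, 62.0 and 62.9 TPM in WT, 196, 87.5 and 233 in *bves* KO and 118, 97.0 and 115 TPM in *bves* KO-EX. The WT libraries lay close together, and every *bves* KO and every *bves* KO-EX library was above them on this scale. On the CPM scale, which the test used, *ucp3* stood at 83.4, 140 and 93.9 in WT, 290, 143 and 347 in *bves* KO and 193, 127 and 177 for *bves* KO-EX, so *bves* KO replicate 2 lay next to WT replicate 2. For *bves* KO against WT edgeR gave 1.30 on the log2 scale (SE 0.346, adjusted p = 0.101), and the gene passed with DESeq2 (adjusted p = 0.00886) and with edgeR without *bves* KO replicate 2 (adjusted p = 0.0434). For *bves* KO-EX the values were −0.65 against *bves* KO (SE 0.341, edgeR adjusted p = 0.41) and 0.65 against WT (SE 0.342, edgeR adjusted p = 0.266). With *bves* KO-EX replicate 2 as the sole exercised library they were −1.05 and 0.25.

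*ucp2*, found in many tissues, had 88.2, 18.2 and 53.4 TPM in WT, 104, 36.6 and 118 in *bves* KO and 49.8, 56.9 and 51.5 TPM in *bves* KO-EX. Both *ucp2* and *ucp3* were lowest in replicate 2 among the *bves* KO libraries. The edgeR log2 fold change of *ucp2* in *bves* KO against WT was 0.71 (SE 0.425, adjusted p = 0.415). *ucp1*, the thermogenic form of mammals, had at most 3 counts in any library. Of the relatives, *slc25a27* had at most 8 counts and was not tested.

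*slc25a14*, known as a brain-type uncoupling protein relative, had 57.4, 53.8 and 55.9 CPM in WT, 68.2, 118 and 57.3 CPM in *bves* KO and 186, 60.0 and 151 CPM in *bves* KO-EX. Exercised replicates 1 and 3 stood far above WT and replicate 2 just above it. Against WT, *bves* KO-EX differed by 1.25 on the log2 scale (SE 0.391, edgeR adjusted p = 0.0862). It passed with DESeq2 (adjusted p = 0.021) and with edgeR without *bves* KO-EX replicate 2 (1.60, adjusted p = 0.0234). With that library as the sole exercised one the value was 0.09, so the higher level lay in replicates 1 and 3. These exercised libraries differed from replicate 2 in *bves* level, respiratory chain level and scaling factor, which cannot be told apart. The WT libraries, with *bves* in the same range as replicates 1 and 3, had *slc25a14* at 53.8 to 57.4 CPM. A relation of *slc25a14* with the *bves* level was not tested.

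The smallest p-value among the members with a value below 0 in *bves* KO against WT was that of *slc25a26*, the carrier of S-adenosylmethionine, the methyl donor for reactions in the matrix. It stood at −0.79 on the log2 scale (SE 0.205), with adjusted p-values of 0.0937 from edgeR and 0.0254 from DESeq2. The glutathione carrier *slc25a40* followed at −0.82 (SE 0.23, edgeR adjusted p = 0.114), with 5.51, 4.44 and 4.76 CPM in WT and 2.52, 3.34 and 2.51 CPM in *bves* KO. The ornithine/citrulline carrier *slc25a15b* stood at −1.42 (SE 0.426, edgeR adjusted p = 0.132), on only 31, 11 and 24 counts in WT and 7, 7 and 10 in *bves* KO. The WT and *bves* KO libraries of all 3 did not overlap in CPM. In TPM they did for *slc25a40*, *bves* KO replicate 1 of *slc25a26* (14.6) lay just above WT replicate 2 (14.5), and for *slc25a15b* *bves* KO replicate 3 equalled WT replicate 2 at 0.25.

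Upward in the same comparison, after *ucp3*, came *slc25a42*, a carrier of coenzyme A, and *slc25a48*, linked to choline import in mammals. *slc25a42* had 6.57, 3.46 and 9.52 CPM in WT, 15.5, 11.1 and 11.2 CPM in *bves* KO and 9.34, 11.3 and 9.62 CPM in *bves* KO-EX (log2 fold change 0.94 from WT to *bves* KO, SE 0.308, edgeR adjusted p = 0.163). *slc25a48* had 2.49, 2.71 and 3.29 CPM in WT, 4.45, 4.32 and 4.14 CPM in *bves* KO and 4.50, 2.34 and 3.53 CPM in *bves* KO-EX (0.60, SE 0.265, edgeR adjusted p = 0.278). In both, every *bves* KO library was above every WT library in CPM, for *slc25a42* not in TPM, and neither passed.

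In *bves* KO-EX against *bves* KO, 1 member rose and 1 fell. The rising member was *slc25a36a*, a carrier of pyrimidine nucleotides, and the falling one *slc25a25b*, a carrier of ATP-Mg and phosphate that responds to calcium. This is 2.17% of the 46 members in each direction, against a background of 0.721% of all tested genes up and 0.916% down, and rests on single genes. At an unadjusted p under 0.05 there were 5 members (10.9%, against 15.3%). The median log2 fold change of the members was 0.03 and that of all genes 0.01. Libraries did not overlap for 4 members higher (background 12.2%) and 2 lower (background 10.8%).

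*slc25a36a* (ENSDARG00000038731) had 71, 41 and 40 estimated counts in *bves* KO and 127, 174 and 106 for *bves* KO-EX, beside 69, 71 and 107 in WT. In CPM these were 3.81, 2.36 and 2.18 in *bves* KO, 7.06, 8.16 and 5.76 for *bves* KO-EX, and 3.31, 5.35 and 5.42 in WT. In CPM the exercised libraries lay above all others, and those of WT and *bves* KO overlapped. In TPM, *bves* KO-EX replicate 3 (1.27) lay just below WT replicate 3 (1.29). edgeR gave a rise of 1.33 on the log2 scale (SE 0.29, adjusted p = 0.0488). The call was lost in all 9 fits with a library left out, with adjusted p-values up to 0.177, and with *bves* KO-EX replicate 2 as the sole exercised library (1.53, adjusted p = 0.205). DESeq2 kept it (adjusted p = 0.00436). Its copy *slc25a36b* stood at 0.43 (SE 0.279, edgeR adjusted p = 0.533) in the same comparison, and at −0.02 with that sole library.

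*slc25a25b* (ENSDARG00000035468) had 19, 20 and 18 counts in *bves* KO, 3, 3 and 1 for *bves* KO-EX, and 13, 4 and 18 in WT. The *bves* KO libraries held 57 counts together and the *bves* KO-EX libraries 7, a ratio of 8.65 per scaled library size (95% exact interval for counting error alone, 3.94 to 22.5). edgeR gave −3.05 on the log2 scale (SE 0.572, adjusted p = 0.0282). It was kept without WT replicate 2 or WT replicate 3 and lost in the other 7 fits with a library left out, with adjusted p-values up to 0.113, and with *bves* KO-EX replicate 2 as the sole exercised library (−2.86, adjusted p = 0.276). The gene averaged 0.43 TPM over the 9 libraries, while its copy *slc25a25a* averaged 108 TPM.

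The copy *slc25a25a* had 66.5, 66.5 and 120 TPM in WT, 133, 180 and 153 in *bves* KO and 137, 32.8 and 80.0 TPM in *bves* KO-EX. All *bves* KO libraries were above all WT libraries, and *bves* KO-EX spread over more than the WT range. Its edgeR log2 fold changes were 0.76 (SE 0.496, adjusted p = 0.454) in *bves* KO against WT and −0.84 (SE 0.497, adjusted p = 0.482) in *bves* KO-EX against *bves* KO. The second value was −0.42 without *bves* KO-EX replicate 2, −1.49 without replicate 1 and −2.45 with replicate 2 as the sole exercised library, so its size rested on single libraries. Of the copies, *slc25a25b* alone passed, in the second comparison. As both comparisons use the *bves* KO libraries, these values are not independent of each other.

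Other members with the smallest p-values in *bves* KO-EX against *bves* KO did not pass. *slc25a43*, a member with no agreed substrate, had 4.50, 3.75 and 3.70 CPM in *bves* KO and 9.28, 6.10 and 7.23 CPM in *bves* KO-EX, beside 6.38, 4.14 and 4.41 CPM in WT (log2 fold change 0.92, SE 0.245, edgeR adjusted p = 0.094; DESeq2 adjusted p = 0.038; 0.59 with replicate 2 as the sole exercised library). *slc25a1a*, a citrate carrier, had 10, 6 and 17 counts in *bves* KO and 31, 31 and 24 for *bves* KO-EX, beside 21, 12 and 10 in WT (1.30, SE 0.434, edgeR adjusted p = 0.171). In both, the exercised libraries lay above all *bves* KO libraries. Downward, *slc25a33*, the other kind of pyrimidine nucleotide carrier, had 108, 60.4 and 101 TPM in *bves* KO and 67.8, 17.1 and 36.2 TPM in *bves* KO-EX, beside 112, 40.3 and 35.9 TPM in WT (−1.11, SE 0.539, edgeR adjusted p = 0.367). The value was −0.71 without *bves* KO-EX replicate 2, −1.81 without replicate 1 and −2.63 with replicate 2 alone.

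*slc25a28*, which is mitoferrin 2 and imports iron, had 72.2, 67.5 and 52.5 CPM in *bves* KO and 55.5, 38.4 and 50.1 CPM in *bves* KO-EX, beside 72.8, 63.6 and 66.4 CPM in WT (−0.42 with an SE of 0.206 between both knockout groups, edgeR adjusted p = 0.372; −0.76 with replicate 2 as the sole exercised library). The other mitoferrin, *slc25a37*, which serves developing red cells in zebrafish and mammals, had at most 5 counts in any library.

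In *bves* KO-EX against WT, 1 member rose and 2 fell: *slc25a32a* rose, and *slc25a26* and *slc25a25b* fell. These are 2.17% and 4.35% of the 46 members, against 3.06% of all tested genes called up and 2.34% down. At an unadjusted p under 0.05 there were 15 members (32.6%, against 25.1%). Libraries did not overlap for 6 members higher in *bves* KO-EX (background 15%) and 10 lower (background 13%). The median log2 fold change of the members was −0.06 and that of all genes 0.01.

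*slc25a26* (ENSDARG00000058208) had 425, 319 and 480 counts in WT, 296, 165 and 261 in *bves* KO and 171, 229 and 183 for *bves* KO-EX. In CPM it stood at 20.4, 24 and 24.3 in WT, 15.9, 9.51 and 14.2 in *bves* KO, and 9.51, 10.7 and 9.95 for *bves* KO-EX. Every library of both knockout groups was below every WT library in CPM. In *bves* KO-EX against WT it fell to 0.44 of the WT level (log2 fold change −1.18, SE 0.207, edgeR adjusted p = 0.0147). It was lost without *bves* KO-EX replicate 1 (adjusted p = 0.0567) or replicate 3 (0.0604), with total counts in place of TMM (0.0532), and with *bves* KO-EX replicate 2 as the sole exercised library (log2 fold change −1.11, adjusted p = 0.182). It was kept under the other 15 of 19 alternatives. Between both knockout groups the difference was −0.39 (SE 0.206), which did not pass (edgeR adjusted p = 0.413), so a further step from unexercised *bves* KO to *bves* KO-EX was not shown.

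*slc25a32a* (ENSDARG00000089791), a copy of a carrier that takes folate and FAD into the matrix in mammals, had 23, 36 and 38 counts in WT, 109, 40 and 68 in *bves* KO and 180, 320.41 and 87 for *bves* KO-EX. In CPM these were 1.1, 2.71 and 1.92 in WT, 5.85, 2.31 and 3.70 in *bves* KO, and 10, 15 and 4.73 for *bves* KO-EX. The *bves* KO-EX and WT libraries did not overlap, and those of *bves* KO overlapped with both. edgeR gave a rise of 2.40 on the log2 scale against WT (SE 0.492, adjusted p = 0.026). The call was kept with *bves* KO-EX replicate 2 as the sole exercised library (2.97, adjusted p = 0.0487). It was lost without any single one of the 3 WT libraries (adjusted p between 0.0519 and 0.0883), without *bves* KO-EX replicate 1 (0.0662) or 2 (0.0557), and with the replicate number as a block (0.0509). The difference from *bves* KO, 1.33 (SE 0.463), did not pass (edgeR adjusted p = 0.193).

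The other copy, *slc25a32b*, had 7.27, 3.16 and 8.74 TPM in WT, 4.93, 5.20 and 6.37 in *bves* KO and 6.96, 5.6 and 7 TPM in *bves* KO-EX, with an edgeR log2 fold change of −0.03 (SE 0.263, adjusted p = 0.963) against WT and −0.45 with the sole exercised library. *slc25a32b* averaged 4.24 times the TPM of *slc25a32a* over all libraries. That ratio ran between 1.19 and 21.4 in single libraries.

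For *slc25a25b*, the *bves* KO-EX libraries lay below WT as well (log2 fold change −2.31, SE 0.589, edgeR adjusted p = 0.0467). The 35 counts of the WT libraries against 7 gave a ratio of 5.36 (95% exact interval for counting error alone, 2.34 to 14.3). The call was lost in all 9 fits with a library left out (adjusted p up to 0.144) and with *bves* KO-EX replicate 2 as the sole exercised library (−2.12, adjusted p = 0.281). The same exercised libraries stand in both comparisons in which this gene was called.

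**Figure D4:**
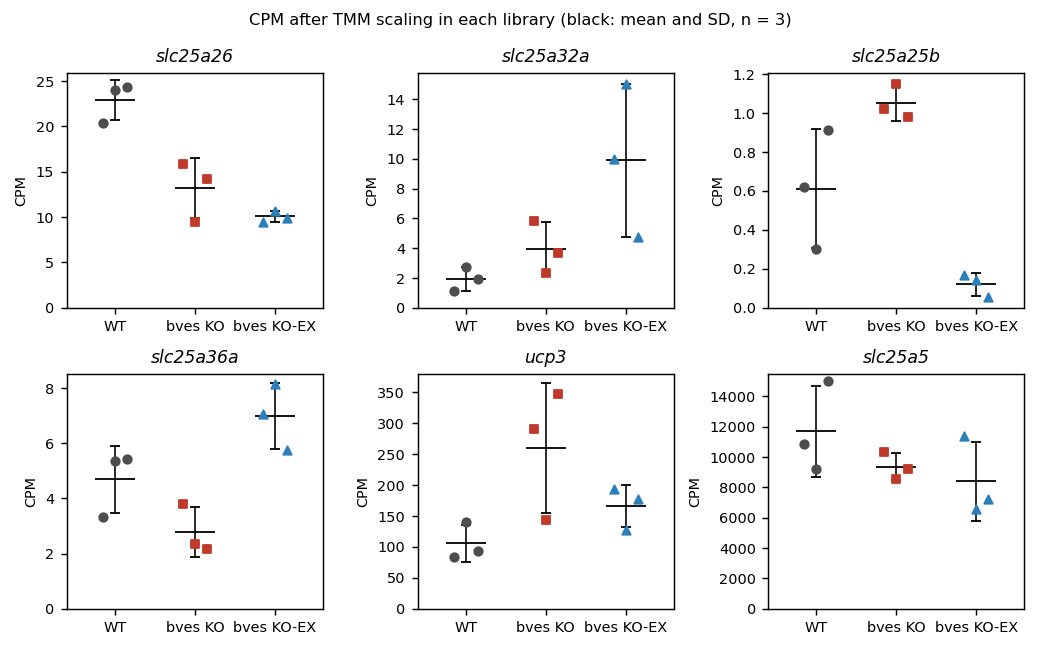
CPM after TMM scaling in each library for the 4 members called in any comparison, for *ucp3* and for *slc25a5*. Points are libraries, and black lines give the mean and SD of each group (n = 3). Both knockout groups of *slc25a26* lie below the WT libraries, the exercised libraries of *slc25a25b* lie between 0.0544 and 0.167 CPM, and the groups of *slc25a5* overlap.

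The remaining members named by p-value in *bves* KO-EX against WT did not pass. The dicarboxylate carrier *slc25a10* (ENSDARG00000025074) had 3.84, 1.05 and 2.94 CPM in WT, 3.70, 6.11 and 3.43 CPM in *bves* KO and 10.8, 3.99 and 4.78 CPM in *bves* KO-EX (log2 fold change 1.29, SE 0.486, edgeR adjusted p = 0.134), with 0.73 without *bves* KO-EX replicate 1 and 0.57 with replicate 2 as the sole exercised library. A gene of this name in capitals, *SLC25A10* (ENSDARG00000097890), had 0 to 17 counts. *slc25a55b*, annotated in the deposited tables as a glutamate carrier, had 80.6, 77.3 and 51.8 CPM in WT, 48.9, 49.7 and 37.6 CPM in *bves* KO and 45.8, 30.9 and 45 CPM in *bves* KO-EX (−0.79, SE 0.239, edgeR adjusted p = 0.0796). It passed with DESeq2 (adjusted p = 0.0219) and with edgeR without WT replicate 3 (adjusted p = 0.0364), and stood at −1.20 (adjusted p = 0.176) with *bves* KO-EX replicate 2 as the sole exercised library.

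By substrate class, the called members *slc25a26*, *slc25a32a* and *slc25a36a* were carriers of nucleotides and cofactors, and *slc25a25b* a carrier of ATP-Mg and phosphate. Whether calls gathered in a class was not tested. Among carriers of nucleotides and cofactors (12 members, 11 tested), no member was called in *bves* KO against WT, 1 was called up in *bves* KO-EX against *bves* KO, and 1 up and 1 down in *bves* KO-EX against WT. In the same order, 0.754%, 0.721% and 3.06% of all tested genes were called up and 0.357%, 0.916% and 2.34% down. These shares are the background for every class here. Among ATP-Mg/phosphate carriers (6 members, 4 tested), *slc25a25b* alone was called. Where it fell from *bves* KO to *bves* KO-EX, *slc25a24* stood at 0.51 on the log2 scale (SE 0.232, edgeR adjusted p = 0.329), or 0.31 with the sole exercised library. The amino acid carriers (16 members, 11 tested, among them *slc25a48*, which was placed there by its number and not for choline) and the di- and tricarboxylate carriers (9 members, 6 tested) held no edgeR call in any comparison, and DESeq2 called 1 of them, *slc25a55b*. In *bves* KO against WT, 8 of the 11 tested amino acid carriers had a log2 fold change below 0, as had 52.3% of all tested genes. The median of these carriers was −0.39 where all genes had −0.03. The values ran from −1.42 for *slc25a15b* to 0.60 for *slc25a48*, whose place in this class is the uncertain one, and none of them passed.

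The uncoupling proteins and relatives (5 members, 3 tested) had log2 fold changes of 0.54 to 1.30 in *bves* KO against WT. All 3 were above 0, as were 47.7% of all tested genes, and none of these relatives passed the edgeR test. Their summed level was 169, 88.3 and 132 TPM in WT, 318, 147 and 369 in *bves* KO and 207, 173 and 203 TPM in *bves* KO-EX, and WT replicate 1 lay above *bves* KO replicate 2. Both glutathione carriers, *slc25a39* and *slc25a40*, had values below 0 in *bves* KO against WT (−0.85 and −0.82) without passing. *slc25a39* had 18.8, 6.37 and 7.91 TPM in WT, 3.46, 10.3 and 4.24 in *bves* KO and 11.4, 7.92 and 12.5 TPM in *bves* KO-EX. All 4 members without an agreed substrate or in the outer membrane stayed between −0.42 and −0.16 in that comparison.

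**Figure D5:**
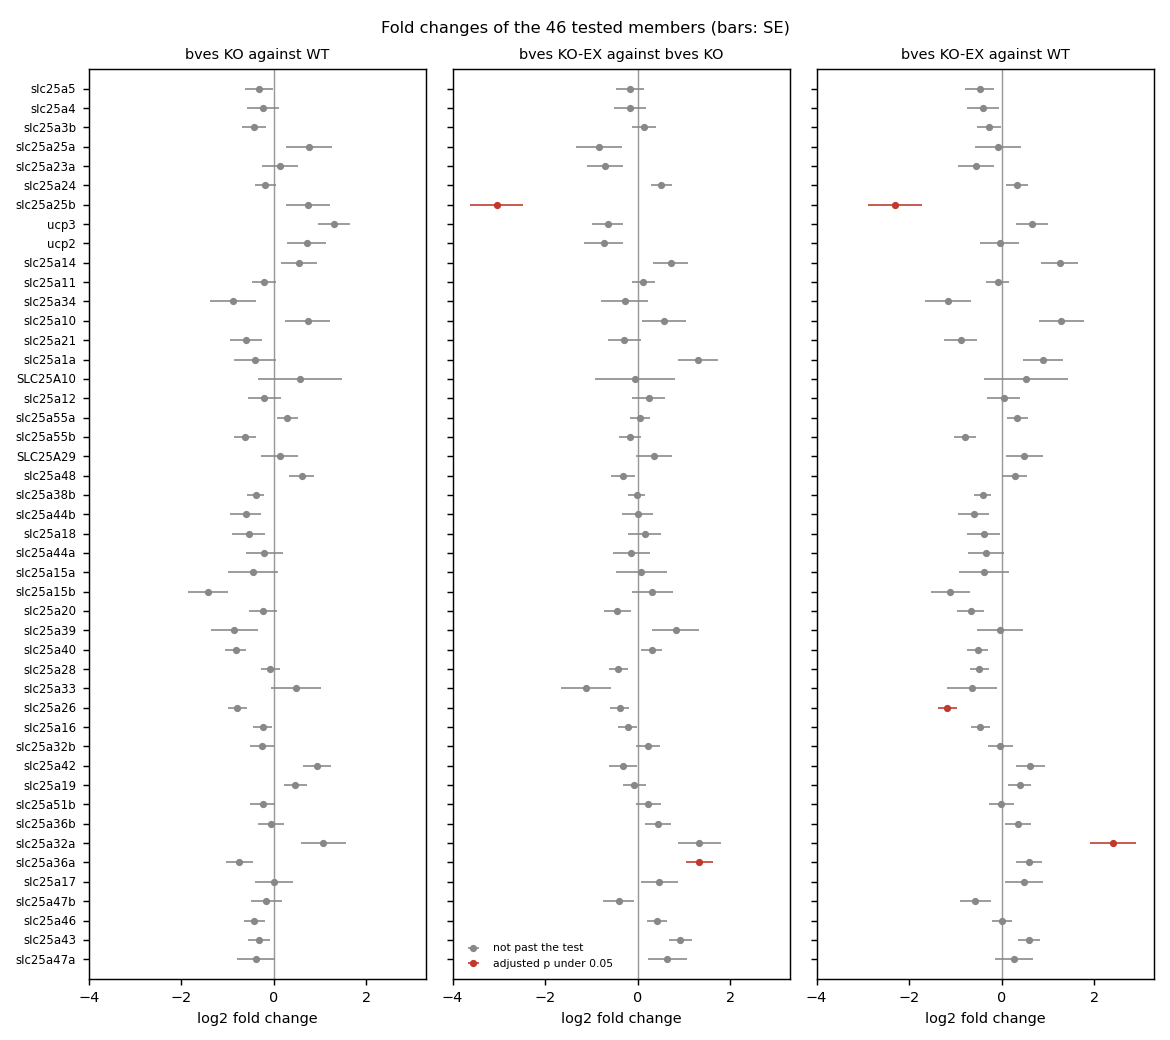
Log2 fold changes with SE (edgeR) of the 46 tested members in each of the 3 comparisons, in the class order used for the levels. Red points passed the adjusted p of 0.05: none in *bves* KO against WT, *slc25a25b* and *slc25a36a* in *bves* KO-EX against *bves* KO, and *slc25a25b*, *slc25a26* and *slc25a32a* in *bves* KO-EX against WT.

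Zebrafish carry many of these carriers as pairs of copies from the genome duplication of teleosts, and 13 pairs have names that differ only in a final a or b. Levels within a pair were often unequal. In 7 pairs a copy had over 5 times the mean TPM of the other or the other was at 0. Among these is *slc25a22*, of which neither copy was tested. The phosphate carrier *slc25a3b* averaged 1382 TPM, and *slc25a3a* 0.0267 TPM with at most 2 counts in any library. For the ATP-Mg/phosphate carriers *slc25a25a* averaged 108 TPM and *slc25a25b* 0.43 TPM, with *slc25a25a* the higher in all 9 libraries. Likewise *slc25a23a* averaged 3.94 TPM with *slc25a23b* at most 3 counts, the glycine carrier *slc25a38b* 2.54 TPM with *slc25a38a* at most 1 count, and the NAD carrier *slc25a51b* 2.95 TPM with *slc25a51a* at most 2 counts. For the citrate carrier, *slc25a1a* averaged 5.29 times *slc25a1b*, which had at most 8 counts, and the ratio ran from 0.9 to 17 in single libraries. The glutamate carrier *slc25a22a* had at most 4 counts while *slc25a22b* had 0 counts in every library, too few to compare the copies.

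Other pairs were closer. *slc25a55a* and *slc25a55b* averaged 34.6 and 33.4 TPM, and *slc25a55a* was the higher in 7 of 9 libraries. In *bves* KO-EX against WT their log2 fold changes stood on either side of 0, at 0.34 (SE 0.224, edgeR adjusted p = 0.369) and −0.79. The branched-chain amino acid carrier copies *slc25a44a* and *slc25a44b* averaged 1.09 and 1.65 TPM. The copies *slc25a47a* and *slc25a47b* averaged 2.47 and 4.56 TPM, *slc25a36a* and *slc25a36b* 1.11 and 1.80 TPM, and *slc25a15a* and *slc25a15b* 0.979 and 0.326 TPM. Reads of close copies can be shared out by the quantification, so the split within a pair is uncertain to that extent.

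Calcium sensing was looked at through the annotation. The deposited tables list an EF-hand, the calcium-binding fold, for 8 members: *slc25a12*, *slc25a13*, *slc25a23a*, *slc25a23b*, *slc25a24*, *slc25a24l*, *slc25a25a* and *slc25a25b*. Of these 5 were tested, and 1 was called, *slc25a25b*, down in both comparisons with *bves* KO-EX. Of all tested genes 0.916% were called down against *bves* KO and 2.34% against WT. The call rests on a single gene with 1 to 20 counts per library. *slc25a12* and *slc25a25a* held nearly all of their transcripts, and *slc25a13*, the other aspartate/glutamate carrier, had at most 4 counts in any library.

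The 16 untested members had at most 14 counts in any library (*slc25a35*), and 7 of them had at most 3 counts in every library. At this depth such members were not detectable or barely so, which does not show that they are absent. Besides those given above they are *slc25a29* (at most 6 counts; *SLC25A29* in capitals is another gene, with 2.11 to 6.32 TPM), *slc25a24l* (at most 5) and *SLC25A1* (at most 1). Within groups, the median CV of the tested members was 27.8% for WT, 20.2% for *bves* KO and 27.3% for *bves* KO-EX, beside 25.9%, 19.7% and 21.2% for all tested genes.

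For comparison, a list of other mitochondrial transporters and membrane proteins (40 genes found and 36 tested) was read from the same fit. It held the pyruvate carrier, calcium uniporter, sideroflexins, VDAC pores, ABC transporters and carnitine palmitoyltransferases. Also on the list were the metaxins, *mtch2*, the *letm* genes, *slc8b1*, *tspo* and *tmem65*, so it was not made of transporters alone. With edgeR it held 0 calls in *bves* KO against WT (background 0.754% up and 0.357% down) and 0 in *bves* KO-EX against *bves* KO (background 0.721% up and 0.916% down). At an unadjusted edgeR p under 0.05 there were 7 of 36 genes in the first comparison (background 16.9%) and 5 in the second (background 15.3%). DESeq2 called 2 up and 1 down in the first, and 2 up and 0 down in the second. Against WT, *bves* KO-EX held 1 up and 1 down with edgeR (background 3.06% and 2.34%). There 10 of 36 genes had an unadjusted edgeR p under 0.05 (background 25.1%), and DESeq2 called 2 up and 3 down. As the share of all tested genes that DESeq2 called was not computed, its counts for this list have no background. The edgeR calls were *micu3b*, a regulator of the calcium uniporter (log2 fold change 1.30, edgeR adjusted p = 0.0291), and *smdt1a*, which encodes its EMRE subunit (−1.36, edgeR adjusted p = 0.0216). The median log2 fold change of that list in *bves* KO against WT was −0.22, the same value as that of the slc25 and ucp members.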

How the data were processed

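RNA was sequenced from 9 skeletal muscle libraries (3 per group) with stranded poly(A) libraries. The authors deposited estimated counts (expected read counts per gene, not normalized) and TPM values, which they scaled for gene length and library size. The submitters' processing notes name fastp, HISAT2, StringTie and RSEM, and the genome build is not given in the sources used here. Columns of the authors' own fold changes, p-values and group means were not used. Groups and replicate numbers came from the sample titles.

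The members and gene lists were chosen with earlier results of these data known. Named members were those called in any comparison, the 10 highest by mean TPM, the 3 with the smallest p in each direction of each comparison, the uncoupling proteins and ADP/ATP carriers, and pairs of copies. A member named outside that rule was chosen after its values were seen. Substrate classes followed the SLC25 number and the deposited gene description, and 61 of 62 members matched RefSeq (assembly GRCz12tu) by gene ID. Protein and promoter sequences were not used here.

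Estimated counts were rounded, filtered by filterByExpr (14849 genes kept) and scaled by TMM (factors 0.763 to 1.17). edgeR 4.0.16 (R 4.3.3) was fitted to all 9 libraries, and its quasi-likelihood test was two-sided and adjusted by Benjamini-Hochberg over the 14849 genes. A call was an adjusted p under 0.05, and the SE was taken from the log2 fold change and its F statistic. DESeq2 1.42.0 was an alternative, and all background shares given are those of edgeR. The steps were tested on simulated data. Levels are deposited TPM (per length), and differences are in CPM after TMM scaling. A floor of 3 counts was used, and intervals and floors cover counting error only. Libraries held 17422188 to 18860779 counts, so members under about 1 TPM rest on few counts. Other alternatives were other scalings, filters, the 6 libraries compared, the replicate number as a block, and each library left out. A fit with *bves* KO-EX replicate 2 as the sole exercised library was added after seeing the data; there the lone library is assumed to vary like the other groups.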

Additional observations from a re-analysis of the deposited data

How the results depend on the processing

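Calls among the members were few and lay close to the threshold. *slc25a26* in *bves* KO-EX against WT kept its call under 15 of 19 alternatives, *slc25a32a* under 13 of 19, *slc25a36a* in *bves* KO-EX against *bves* KO under 6 of 19, and *slc25a25b* under 8 of 18 against *bves* KO and 3 of 17 against WT. No called member changed sign. In *bves* KO against WT, DESeq2 called 1 member up and 1 down where edgeR called 0. With DESeq2, 2 members were up in *bves* KO-EX against *bves* KO and 2 in *bves* KO-EX against WT, where edgeR called 1 each. Downward, DESeq2 called *slc25a25b* against *bves* KO, as edgeR did. Against WT it called *slc25a25b*, *slc25a26* and *slc25a55b* down, and edgeR did not call the last of these. The share of all tested genes that DESeq2 called was not computed, so its calls have no background beside them.

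Leaving out each library in turn gave 0 to 1 members up in *bves* KO against WT, 0 up and 0 to 1 down in *bves* KO-EX against *bves* KO, and 0 to 1 up and 0 to 2 down in *bves* KO-EX against WT. Total counts in place of TMM moved the median of all genes to 0.11 in both comparisons with *bves* KO-EX and left 0 members up and 0 down against *bves* KO and 0 down against WT. Median-of-ratios factors left 0 up against *bves* KO, and upper-quartile factors, no filter on low counts, or the 6 libraries compared left 1 down against WT. With those 6 libraries *slc25a25b* did not pass the filter and was not tested against WT. At least 10 counts in every library removed *slc25a25b* from the test, which left 0 down against *bves* KO and 1 down against WT. With *bves* KO-EX replicate 2 as the sole exercised library, chosen after seeing the data, 0 up and 0 down were called against *bves* KO, and 1 down was called against WT, *slc25a23a* (−2.10, adjusted p = 0.0289), which had not been called with all libraries (−0.56, adjusted p = 0.402). Both members called down there with all libraries, *slc25a26* and *slc25a25b*, were lost. The ratios of the family's level, 0.869 and 0.801 to WT, moved by less than the spread between libraries under CPM per kilobase, though the difference of *bves* KO-EX from WT there exceeded the SD among WT.

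Same-numbered libraries come from different fish and did not deviate together (mean correlation 0.0885 for *bves* KO with WT, −0.151 for *bves* KO-EX with *bves* KO and −0.0235 for *bves* KO-EX with WT). With the replicate number as a block there were 0 calls in *bves* KO against WT and in *bves* KO-EX against *bves* KO, and 0 up and 1 down in *bves* KO-EX against WT.

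Some members that were not called changed sign under some alternatives. No direction is taken as shown for any member without a call, and the cause of these changes was not tested. With *bves* KO-EX replicate 2 as the sole exercised library, *bves* KO-EX against *bves* KO was −0.30 for *slc25a11*, −0.64 for *slc25a12* and −0.26 for *slc25a3b*, and *slc25a12* was −0.84 against WT. Total counts gave 0.01 for *slc25a11* and 0.00 for *slc25a25a* against WT. For *ucp2* in *bves* KO-EX against WT, upper-quartile factors gave 0.04 and the replicate block 0.13. Over the fits without 1 library each, the ranges that included both signs were *slc25a20* −0.40 to 0.06, *slc25a4* −0.49 to 0.04 and *slc25a12* −0.37 to 0.18 in *bves* KO against WT. For *bves* KO-EX against *bves* KO they were *slc25a12* −0.03 to 0.53, *slc25a3b* −0.01 to 0.30, *slc25a4* −0.32 to 0.09 and *slc25a11* −0.05 to 0.28. For *bves* KO-EX against WT they were *slc25a11* −0.25 to 0.08, *slc25a25a* −0.72 to 0.35, *slc25a12* −0.22 to 0.41 and *ucp2* −0.34 to 0.35.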

Other observations

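A further 5 genes carry the mitochondrial carrier domain in the deposited annotation without a name of the family. Of these, 1 was tested, *mtch2*, an outer membrane protein known for inserting other proteins into that membrane in mammals, with a mean of 30.2 TPM over the 9 libraries. That level lies among those of the 16 members with at least 10 TPM.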
